A study of Homo sapiens with 8 samples.

Results

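The BCL2 family genes described here encode proteins that hold back or set off death through the mitochondria. They were taken as 10 named genes, with every probe set on the array that the platform annotation pairs with 1 of these symbols and no other. By that rule 9 of the 10 genes were found, on 28 probe sets, among 19775 genes in all. They are the survival genes BCL2, BCL2L1, BCL2A1 and MCL1 and the death genes BCL2L11, PMAIP1, BIK, BMF and BAX. BBC3 lies only on 1 probe set shared with other symbols and was not analysed here.

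In the intrinsic death pathway, proteins such as BCL2, BCL-XL (BCL2L1), MCL1 and BFL-1 (BCL2A1) bind and restrain the pore former BAX at the outer mitochondrial membrane. BH3-only proteins, among them BIM (BCL2L11), NOXA (PMAIP1), BIK and BMF, occupy the groove of the survival proteins and so free BAX. In melanoma, ERK signalling is known to keep BIM and BMF low, BCL2A1 is a lineage gene under the melanocyte factor MITF, and NOXA, which binds MCL1 in particular, is a known target of p53 and of ATF4.

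RNA came from A375, an established human melanoma cell line with a mutated, active BRAF kinase. Cells transfected with nontargeting siRNA (siCont) were kept for 18 h in medium with or without glutamine, as were cells transfected with siRNA against BRAF (siBRAF). Cells transfected with siRNA against ATF4 (siATF4) were cultured in normal medium. In a second set, siCont cells received DMSO, and siCont and siATF4 cells received 10 uM of the BRAF inhibitor vemurafenib, for 4 h. Every group was thus a transfected culture of the same line. Each of these 8 conditions has 1 array, so no difference between single arrays has a replicate check.

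Array medians ran from 14.8 to 15.5 over the 5 medium conditions but from 36.4 to 36.9 over the 3 DMSO and vemurafenib conditions, so differences were taken only within each set. Intensities are on a linear scale, differences are in log2(intensity + 1), and a fold below is on that same scale. Each gene is given by its brightest probe set unless another is named, and a gene entered a comparison where 1 of its 2 values reached the median of that array. The knockdown label was checked on ATF4, which read 1814 with siCont and 534 with siATF4 in normal medium, and 4548 and 757 in vemurafenib. BRAF itself was not analysed here. Of 8 melanocyte markers with a probe set, 6 lay above the array median on all 8 arrays, including SOX10 at 497 or more, while MLANA lay below it on all 8 and PMEL on 5. Markers of other cell types were mixed: EPCAM, CDH1, PTPRC and CDH5 lay below the median on all 8 arrays, while 2 of 4 fibroblast, 2 of 4 epithelial, 3 of 4 leukocyte and 1 of 3 endothelial markers lay above it on all 8, among them COL1A1, KRT14, LYZ and PECAM1. With total RNA from whole cultures, fewer cells with a transcript and less of it per cell cannot be told apart.

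The upstream sequences of 4 genes are shown because the largest differences with siATF4 (PMAIP1, BCL2A1) and the largest positive differences with siBRAF (BMF, BAX) were found in them. Each is the 250 bases before the annotated start of the gene, 5′ to 3′ on the gene's strand, outside the transcript that begins there, from RefSeq on GRCh38.p14. The table used here held such a stretch for 8 of the 10 genes. PMAIP1 lies at chr18:59899746-59899995 on the plus strand, BCL2A1 at chr15:79971197-79971446 on the minus strand, BMF at chr15:40108880-40109129 on the minus strand and BAX at chr19:48954625-48954874 on the plus strand. Capitals mark matches to any of 6 patterns searched on both strands.
PMAIP1: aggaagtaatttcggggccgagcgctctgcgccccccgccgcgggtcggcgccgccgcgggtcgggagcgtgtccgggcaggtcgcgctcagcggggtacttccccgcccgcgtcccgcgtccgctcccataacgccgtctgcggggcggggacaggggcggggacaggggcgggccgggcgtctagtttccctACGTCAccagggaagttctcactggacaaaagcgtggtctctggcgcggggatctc
BCL2A1: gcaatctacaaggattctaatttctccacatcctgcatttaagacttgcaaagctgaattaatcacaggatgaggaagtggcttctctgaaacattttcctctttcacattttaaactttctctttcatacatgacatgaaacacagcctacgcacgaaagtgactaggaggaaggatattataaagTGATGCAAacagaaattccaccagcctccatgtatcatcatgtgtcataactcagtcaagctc
BMF: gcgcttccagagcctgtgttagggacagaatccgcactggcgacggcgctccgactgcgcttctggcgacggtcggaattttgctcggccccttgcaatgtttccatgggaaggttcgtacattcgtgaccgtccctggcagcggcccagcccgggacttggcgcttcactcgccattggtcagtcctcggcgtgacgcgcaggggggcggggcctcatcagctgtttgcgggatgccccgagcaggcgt
BAX: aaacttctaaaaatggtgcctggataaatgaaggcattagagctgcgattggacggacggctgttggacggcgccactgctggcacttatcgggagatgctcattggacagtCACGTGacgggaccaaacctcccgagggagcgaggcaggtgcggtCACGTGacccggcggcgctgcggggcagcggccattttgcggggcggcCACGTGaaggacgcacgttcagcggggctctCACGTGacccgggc

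The patterns were the ATF/CREB core TGACGT, the C/EBP-ATF composite TGATGNAA, the forkhead pattern GTAAACA, the AP-1 pattern TGANTCA, the ETS pattern CCGGAAG and the E-box CACGTG. Matches of different patterns may overlap. PMAIP1 holds 1 ATF/CREB core, 56 bases before the start, a pattern present in 7.42% of 27305 such windows. BCL2A1 holds 1 C/EBP-ATF composite, 63 bases before the start, against 3.19% of windows. The BAX window holds 4 E-boxes, where 6.49% of windows hold at least 1. BMF held no match, and the forkhead pattern, present in 2.98% of windows, was found only in BCL2L11 among the 8. A match describes letters in the window, not binding.

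One pattern among the 9 genes was a split with BRAF knockdown. Transcripts of the survival gene MCL1 and of the BH3-only gene PMAIP1 were at least 2-fold lower with siBRAF than with siCont in both media, while those of the BH3-only gene BMF and of the pore gene BAX were at least 2-fold higher in both. In normal medium 12.5% of genes lay as far from 0 as MCL1, 2.85% as PMAIP1, 3.35% as BMF and 13.3% as BAX. In glutamine-free medium these shares were 4.04%, 0.4%, 3.47% and 11.9%. BIK was that much lower only without glutamine (-2.70), and stood at -0.63 in normal medium, a size that 28.6% of genes reached. Of these, only BMF passed the test of the additive model described further on. Glutamine withdrawal in siCont cells went with higher MCL1, BCL2A1, PMAIP1 and BIK, and in siBRAF cells with none of these. Vemurafenib went with lower MCL1, and siATF4 in vemurafenib with lower PMAIP1.

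**Figure D1:**
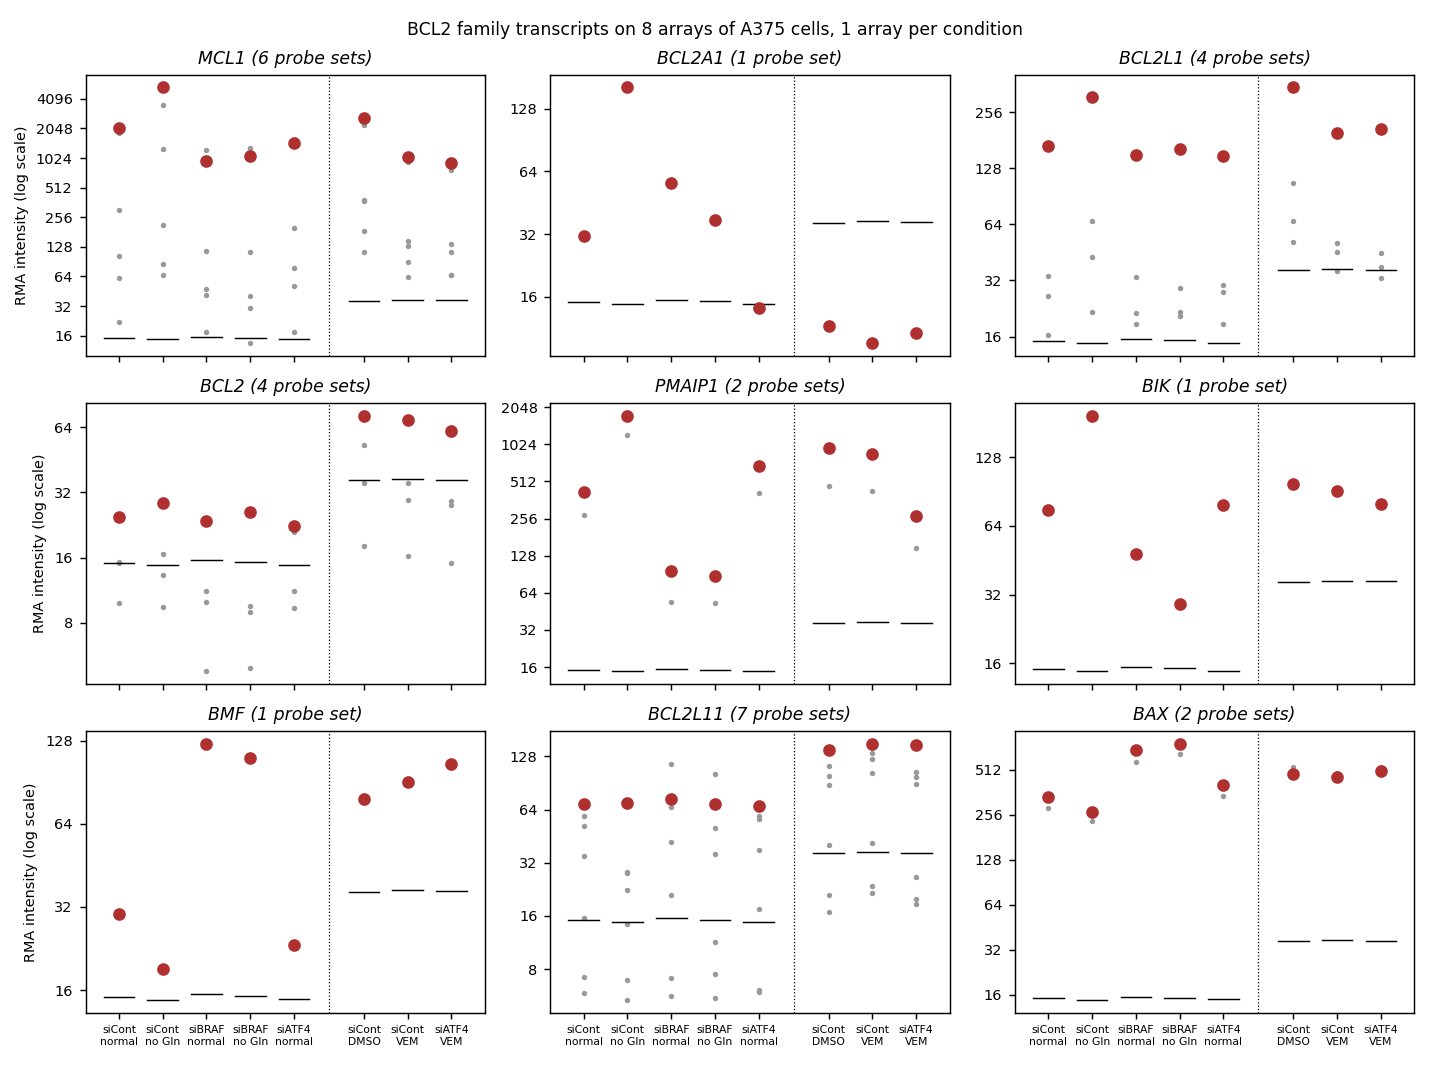
RMA intensity on a log scale for the 9 genes on the 8 arrays, with 1 array per condition. Large red points are the probe set used for the gene, small grey points its other probe sets, short lines the array's median, and the dotted line parts the medium arrays from the DMSO and vemurafenib (VEM) arrays, whose scales differ. MCL1, BCL2A1, PMAIP1 and BIK peak on the siCont array without glutamine (no Gln), and BMF and BAX are highest among the medium arrays on those of siBRAF.

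Among the survival genes, MCL1, whose short-lived protein is restrained by NOXA, varied on all its probe sets. Its intensity was 2056 with siCont in normal medium, 5370 with siCont without glutamine, 957 and 1065 with siBRAF in normal and glutamine-free medium, and 1447 with siATF4. The siCont array without glutamine stood highest and both siBRAF arrays lowest. In the second set MCL1 read 2617 in DMSO, 1056 in vemurafenib and 904 in vemurafenib with siATF4. DMSO stood above both vemurafenib arrays. The difference was 1.39 for glutamine withdrawal in siCont cells, -1.10 and -2.33 for siBRAF in normal and glutamine-free medium, and -1.31 for vemurafenib, a 2.48-fold lower level. Only 1.51% of genes lay as far from 0 with vemurafenib. All 6 MCL1 probe sets were higher without glutamine in siCont cells (0.48 to 2.05), lower with siBRAF in both media (-0.32 to -1.36, and -1.45 to -3.45) and lower with vemurafenib (-0.85 to -1.52). With siATF4 MCL1 stood at -0.51 in normal medium, where 6.67% of genes lay as far from 0 and all 6 probe sets were lower (-0.27 to -0.62), and at -0.22 in vemurafenib, where 30.6% did and 5 of 6 were lower.

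BCL2A1, which encodes the survival protein BFL-1, had 1 probe set and low levels. It read 31.5 with siCont in normal medium, 162 with siCont without glutamine, 56.6 and 37.6 with siBRAF in normal and glutamine-free medium, and 14.2 with siATF4. Only the siCont array without glutamine stood far from the rest, 5.02-fold above normal medium. The siATF4 array was 2.13-fold below siCont and lay under the array median, so that its size depends on background. In the second set the gene read 11.6 in DMSO, 9.61 in vemurafenib and 10.8 in vemurafenib with siATF4. All 3 values lay below the array median, and no difference is read from them. MITF, for comparison, read 254 and 417 with siCont in normal and glutamine-free medium and 567 on both siBRAF arrays.

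BCL2L1, which encodes BCL-XL, moved like MCL1 but by less for glutamine withdrawal in siCont cells and for vemurafenib. With siBRAF in normal medium it stood at -0.16, with probe sets from -0.29 to 0.18, where MCL1 stood at -1.10. With siBRAF in glutamine-free medium it stood at -0.92, a size that 26.9% of genes reached, where MCL1 stood at -2.33. Its probe sets ran from -1.17 to 0.003 there. BCL2L1 read 168 and 308 with siCont in normal and glutamine-free medium, 150 and 163 with siBRAF, and 148 with siATF4, so that 1 array stood above 4 others that lay close together. In DMSO it read 348, against 199 in vemurafenib and 208 in vemurafenib with siATF4. The differences, 0.88 for glutamine withdrawal in siCont cells and -0.81 for vemurafenib, were under 2-fold. The vemurafenib difference was matched in size by 4.47% of genes. Of the 4 BCL2L1 probe sets 3 shared these directions (0.88 to 1.33, and -0.81 to -1.22), while the third brightest stood at -0.28 and -0.02.

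BCL2, the founding survival gene, was low and nearly flat on the probe set used. It read 24.8 and 28.5 with siCont in normal and glutamine-free medium, 23.7 and 25.9 with siBRAF, and 22.4 with siATF4. It read 72.4, 68.8 and 61.4 in DMSO, vemurafenib and vemurafenib with siATF4. The largest of its 7 differences was 0.20. Of its other 3 probe sets, the second brightest was lower with siBRAF, at -1.495 in normal and -1.56 in glutamine-free medium, from 15.2 and 16.6 with siCont to 4.76 and 4.96. Those siBRAF values lie below the array median, so the size depends on background.

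Among the BH3-only genes, PMAIP1 (NOXA) had the widest range of the 9. It read 420 with siCont in normal medium, 1749 with siCont without glutamine, 96.3 and 87.5 with siBRAF in normal and glutamine-free medium, and 690 with siATF4. The siBRAF arrays stood far below the other 3, and the siCont array without glutamine far above. PMAIP1 was 4.33-fold lower with siBRAF in normal medium and 19.8-fold lower without glutamine, the 19th lowest of 13499 genes. The second set gave 965 in DMSO, 855 in vemurafenib and 271 in vemurafenib with siATF4. DMSO and vemurafenib lay close together, and the siATF4 array was 3.15-fold lower, a difference that only 0.175% of genes reached in size. In normal medium siATF4 stood on the other side, 1.64-fold above siCont, a size that 2.36% of genes reached. Both PMAIP1 probe sets gave these directions, at 0.71 and 0.59 in normal medium and at -1.66 and -1.53 in vemurafenib.

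BIK, a BH3-only protein of the endoplasmic reticulum, had 1 probe set. It read 75.2 and 194 with siCont in normal and glutamine-free medium, 48.1 and 29.1 with siBRAF, and 78.9 with siATF4. The order of the media was opposite in siCont and siBRAF cells: BIK was 2.56-fold higher without glutamine in siCont cells and 1.63-fold lower in siBRAF cells. In the second set it read 97.3, 91.3 and 79.5 in DMSO, vemurafenib and vemurafenib with siATF4, differences of at most 0.20 in size between neighbouring arrays.

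BMF, a BH3-only protein tied to the cytoskeleton, also had 1 probe set. It read 30.1 and 19.1 with siCont in normal and glutamine-free medium, 125 and 110 with siBRAF (110.49 without glutamine), and 23.3 with siATF4. Both siBRAF arrays stood well above the other 3 medium arrays, by 4.04-fold over siCont in normal and 5.54-fold in glutamine-free medium. The siCont value without glutamine lies close to the array median of 14.8, and with log2(intensity + 16) the 5.54-fold difference became 3.60-fold. In DMSO it read 78.9, in vemurafenib 90.8 and in vemurafenib with siATF4 105.5, so the 4 h drug arrays showed differences of only 0.20 and 0.21.

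BCL2L11 (BIM) gave answers that differed between its 7 probe sets. The brightest was flat at 67.0 to 73.6 on the medium arrays and 140 to 150 on the others. The second brightest read 59.2 and 27.9 with siCont in normal and glutamine-free medium, 116 and 102 with siBRAF, and 59.0 with siATF4, then 99.0, 133 and 89.3 in DMSO, vemurafenib and vemurafenib with siATF4. On it the siBRAF arrays were highest in the first set and the siCont array without glutamine lowest. Its differences were -1.06 for glutamine withdrawal in siCont cells, 0.97 and 1.83 for siBRAF in normal and glutamine-free medium, and 0.43 for vemurafenib. The third brightest gave -1.17, 0.36, 1.13 and 0.12 for the same 4 comparisons. With vemurafenib all 7 were positive (0.03 to 0.43), and 2 of the 7 lay below the array median on all 8 arrays. BCL2L11 is therefore counted as flat below by its brightest probe set, although 2 others are at least 2-fold apart with siBRAF without glutamine.

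BAX, the pore former on which BH3-only signals converge, read 334 and 266 with siCont in normal and glutamine-free medium, 698 and 761 with siBRAF, and 405 with siATF4. Both siBRAF arrays stood above the other 3. The level with siBRAF was 2.09-fold higher in normal and 2.86-fold higher in glutamine-free medium, and the second BAX probe set gave 1.02 and 1.48 on the log2 scale. In DMSO, vemurafenib and vemurafenib with siATF4 it read 481, 455 and 502, which lie close together.

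**Figure D2:**
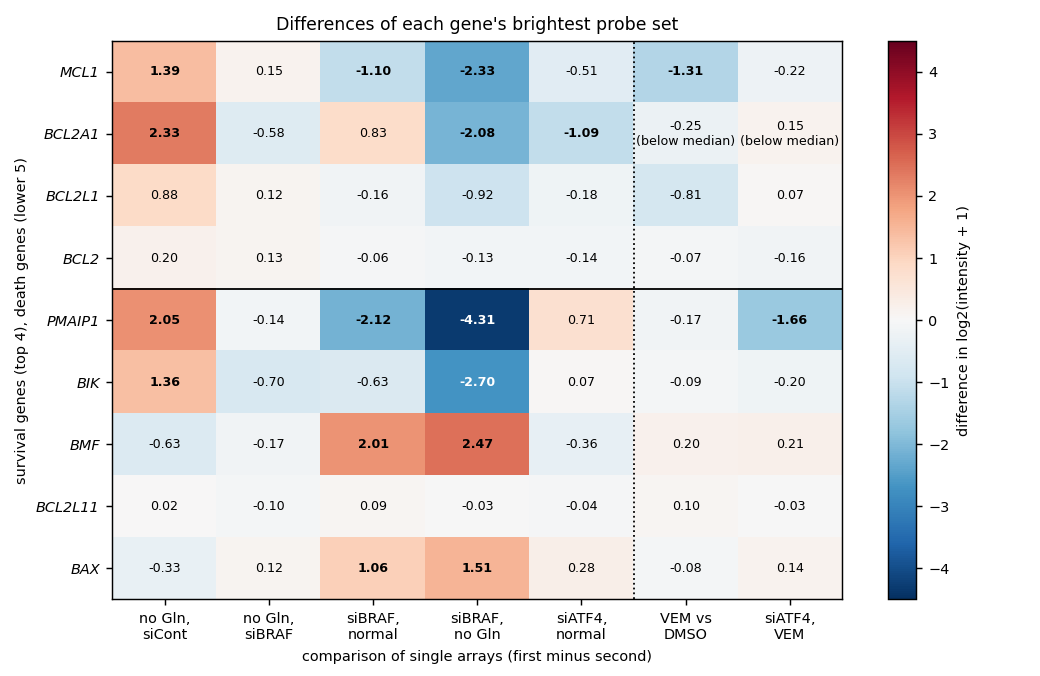
Difference in log2(intensity + 1) between single arrays for the brightest probe set of each gene, with the 4 survival genes above the line and the 5 death genes below. Columns are the 7 comparisons, bold values are at least 2-fold apart, and BCL2A1 did not enter the last 2. The siBRAF columns hold both signs, from -4.31 for PMAIP1 to 2.47 for BMF.

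Glutamine withdrawal in siCont cells asked how the control cells respond to the missing amino acid. Of the 9 genes, 4 were at least 2-fold higher (MCL1, BCL2A1, PMAIP1, BIK), against 5.76% of 13359 genes, and 0 were at least 2-fold lower, against 7.22%. The median of the 9 was 0.88, and that of all genes -0.05. The 4 higher genes are 2 survival and 2 BH3-only genes. The log2 ratio of 3′ to 5′ actin control probes was 0.28 on this array and 0.16 to 0.20 on the other 4 medium arrays. The same ratio for GAPDH control probes was 0.131 on this array and 0.105 to 0.137 on the other 4. The part of RNA quality in these differences was not tested.

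With BRAF knocked down, glutamine withdrawal left 0 of 9 higher, where 0.0457% of 13139 genes were, and 0 lower, where 0.0761% were. The median of the 9 was -0.10. This pair had the narrowest spread of the 7, with an SD over all genes of 0.19, and within it BIK stood at -0.70 and BCL2A1 at -0.58, sizes that 0.784% and 1.37% of genes reached. The glutamine response was more negative in siBRAF than in siCont cells by at least 2-fold for BCL2A1 (-2.91), PMAIP1 (-2.19), BIK (-2.06) and MCL1 (-1.23), 4 of 9 against 5.69% of 13715 genes. It was more positive by that much for 0 of 9, against 7.55%. This difference rests on 4 single arrays, among them both arrays of the siCont glutamine comparison, and was not tested. Its 4 genes are those counted above as higher without glutamine in siCont cells, so this count is not independent of that one.

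With siBRAF in normal medium, BMF and BAX were at least 2-fold higher, against 7.15% of 13350 genes, and PMAIP1 and MCL1 at least 2-fold lower, against 7.6%. In glutamine-free medium BMF and BAX were again higher, where 12.8% of 13499 genes were, and PMAIP1, BIK, MCL1 and BCL2A1 were lower, where 10.8% were. With glutamine the median of the 9 was -0.06, and without it -0.92, against -0.01 and 0.02 over all genes. Summed intensities of marker lists moved with siBRAF too. The 8 melanocyte markers summed to 6332 against 3275 in normal and 5647 against 3574 in glutamine-free medium. The 4 fibroblast markers summed to 413 against 221 and 545 against 164, the 4 leukocyte markers to 120 against 208 and 107 against 162, the 4 epithelial markers to 178 against 209.7 and 199 against 117, and the 3 endothelial markers to 49.98 against 46.86 and 47.8 against 44.4. Single genes carried much of these sums. Over the medium arrays LUM ran from 12.5 to 388, against 106 to 123 for COL1A1, 12.2 to 18.8 for COL1A2 and 25.8 to 36.8 for DCN. LYZ ran from 30.1 to 173, against 2.66 to 3.44 for PTPRC, 21.0 to 31.3 for CD3E and 47.3 to 56.4 for CD79A. The widest intensity ranges among the melanocyte markers were those of MIA (1310 to 3260) and S100B (110 to 1300). The part of these markers in the siBRAF differences was not tested. BCL2A1 was on opposite sides, at 0.83 and -2.08. The siCont array without glutamine is the highest of the medium arrays for PMAIP1, BIK, MCL1 and BCL2A1, whose siBRAF differences are larger in size in that medium. BIK and BCL2A1 also read lower without glutamine in siBRAF cells, at -0.70 and -0.58. The comparisons of siBRAF without glutamine and of glutamine withdrawal in siCont cells share the siCont array without glutamine.

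**Figure D3:**
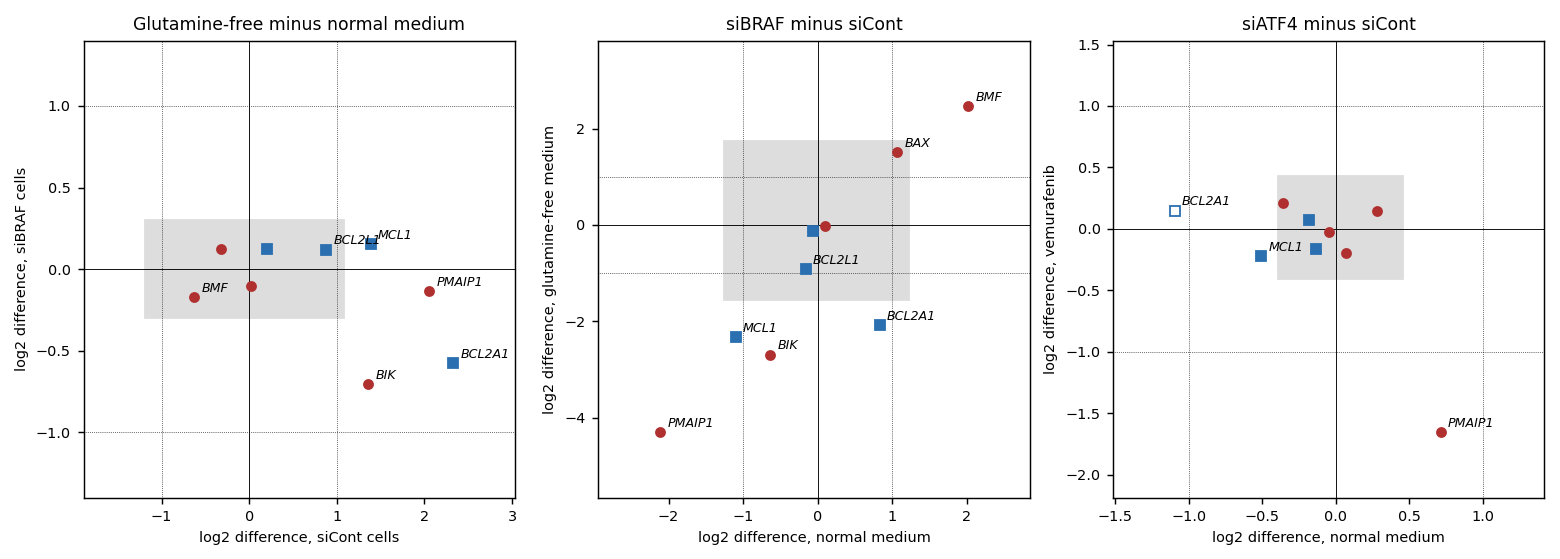
Each panel sets the log2 difference of a gene in 1 pair of arrays (x axis) against the same kind of difference in a pair with no array in common (y axis), for glutamine-free medium, siBRAF and siATF4. Blue squares are survival genes, red circles death genes, an open symbol did not enter both, the grey box spans the central 90% of all genes on each axis and dotted lines mark 2-fold. BMF and PMAIP1 lie outside the box on both axes for siBRAF, and PMAIP1 lies at 0.71 and -1.66 for siATF4.

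An additive model with terms for siBRAF and glutamine-free medium was fitted with limma to the 4 siCont and siBRAF medium arrays. Its residual is the departure from additivity, with 1 degree of freedom a gene, and not the error between cultures. On simulated data this fit made more false calls than its threshold allows. BMF rose with siBRAF, with an estimate of 2.24 in log2 units (SE 0.24) and a limma adjusted p of 0.0346, being higher in both media. It was the 1 call among the 9, where 2.79% of 13715 genes rose. Under 9 alternative settings its adjusted p ran from 0.00683 to 0.0503, the latter without shared probe sets. None of the 9 fell, where 1.68% of all genes did. The estimate for PMAIP1 was -3.21 (SE 0.58, limma adjusted p = 0.0623), for MCL1 -1.72 (SE 0.33, 0.0690) and for BAX 1.29 (SE 0.25, 0.0703). These missed the threshold of 0.05, though PMAIP1 passed it under 4 of 8 alternative settings, MCL1 under 2 of 9 and BAX under 2 of 8. In all, 5 of the 9 had an unadjusted p below it, as had 3734 of all genes. Without glutamine 0% of genes rose and 0% fell in limma, with 168 genes and 0 of the 9 at an unadjusted p below 0.05. The BCL2A1 response, positive in siCont and negative in siBRAF cells, enters such a fit as a departure.

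siATF4 in normal medium left most of the 9 near siCont, with a median of -0.14 and PMAIP1 the highest at 0.71. BCL2A1 was at least 2-fold lower, against 0.387% of 13172 genes, and 0 were at least 2-fold higher, against 0.471%. With log2(intensity + 16) BCL2A1 stood at -0.65. The melanocyte markers summed to 2243 with siATF4 against 3275 with siCont, with SOX10 at -0.64 and MITF at -0.06, and their part in the BCL2A1 difference was not tested. In vemurafenib, siATF4 went with at least 2-fold lower PMAIP1 and no other of the 8 genes that entered, against 0.729% of 13173 genes, and with 0 higher, against 0.205%. The median of the 8 was -0.09 there.

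Vemurafenib for 4 h asked how the cells respond to inhibition of the BRAF kinase. MCL1 was at least 2-fold lower, 1 of 8 genes against 1.92% of 13160, and 0 were at least 2-fold higher, against 0.859%. MCL1 and BCL2L1 were lower with vemurafenib, as MCL1 was with siBRAF in both media. BCL2L1 stood at -0.16 and -0.92 with siBRAF in normal and glutamine-free medium. PMAIP1 (-0.17), BAX (-0.08) and BMF (0.20), which stood at least 2-fold apart with siBRAF, were within 2-fold with vemurafenib. Time, agent and array set all differ between siBRAF and vemurafenib, so the values are given side by side only. The log2 ratio of 3′ to 5′ actin probes was -0.18 in DMSO, -0.07 in vemurafenib and -0.0017 in vemurafenib with siATF4. For GAPDH probes it was -0.034, -0.041 and -0.045 on the same arrays. The part of RNA quality in the drug and siATF4 differences was not tested. Against DMSO, vemurafenib with siATF4 stood at -1.53 for MCL1 and -1.83 for PMAIP1.

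**Figure D4:**
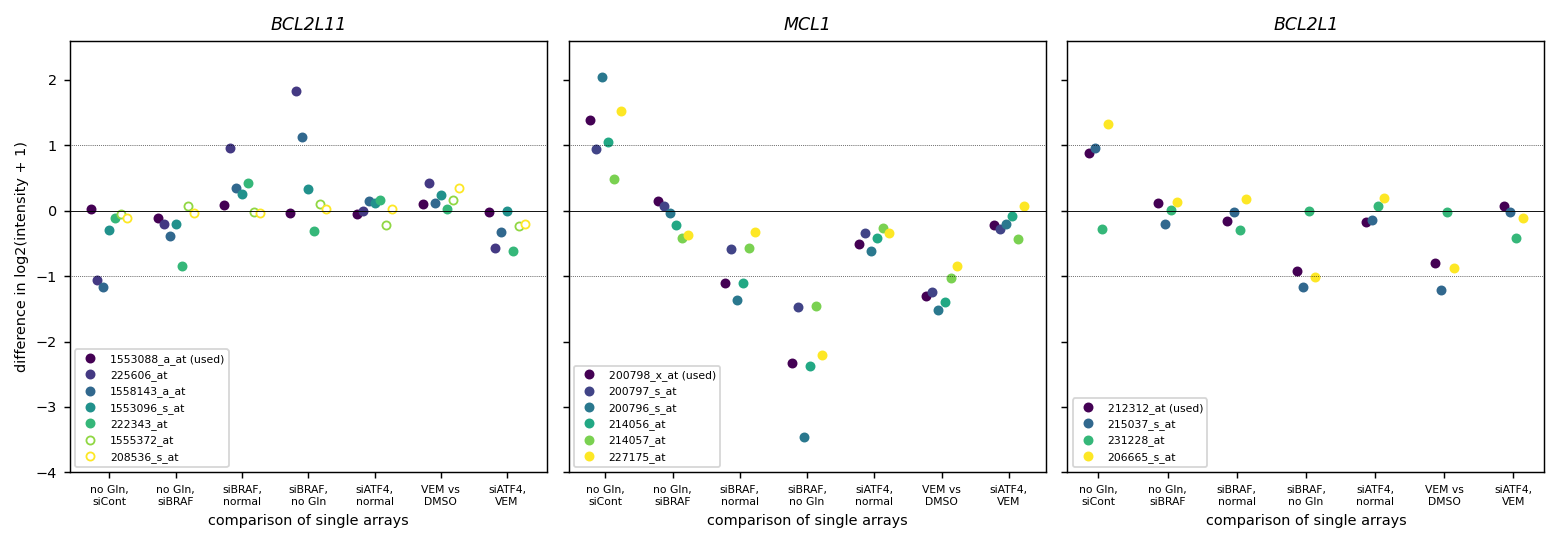
Difference in log2(intensity + 1) by probe set for BCL2L11, MCL1 and BCL2L1 in the 7 comparisons, 1 colour per probe set. Open symbols are probe sets below the array median on all 8 arrays, and dotted lines mark 2-fold. All 6 MCL1 probe sets lie below 0 with siBRAF and with vemurafenib, while those of BCL2L11 run from -0.31 to 1.83 with siBRAF without glutamine.

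Of 13 other BCL2 family genes with a probe set, 11 entered for glutamine withdrawal in siCont cells. BCL2L2 (BCL-W), a survival gene, was higher there at 1.20, and the mitophagy receptors BNIP3 (-2.04) and BNIP3L (-1.05) were lower, 1 of 11 and 2 of 11 against 5.76% and 7.22% of all genes, with a median of 0.02. With siBRAF in normal medium BNIP3 (-1.79) and BNIP3L (-1.27) were lower, 2 of 9 against 7.6% of all genes, and 0 of 9 higher, against 7.15%, with a median of -0.33. Without glutamine siBRAF went with lower BCL2L2 (-1.45), 1 of 11 against 10.8%, and higher BAD (1.05), a BH3-only gene, 1 of 11 against 12.8%. BNIP3L was also lower with siATF4 in vemurafenib, at -1.49, 1 of 11 against 0.729% of all genes. There 0 of 11 were higher, against 0.205%. BAK1, the second pore former, stayed at 97.1 to 127 on the 5 medium arrays. In the limma model 0 of 11 genes of this list were called with siBRAF, where 2.79% of all genes rose and 1.68% fell.

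Downstream of the pore, 11 apoptosome and caspase genes entered. CASP6 (-1.39) and APAF1 (-1.31), the scaffold of the apoptosome, were lower without glutamine in siCont cells, 2 of 11 against 7.22% of all genes, and 0 were higher, against 5.76%. With siBRAF without glutamine APAF1 (1.69), CASP6 (1.38), HTRA2 (1.32) and AIFM1 (1.03) were higher, 4 of 11 against 12.8%, and 0 were lower, against 10.8%. With siBRAF in normal medium 0 of the 11 were 2-fold apart, where 7.15% of all genes were higher and 7.6% lower. Their medians were -0.37, 0.06 and -0.24. Among the inhibitor of apoptosis genes BIRC2 (cIAP1) was higher without glutamine in siCont cells, at 1.10, and BIRC5 (survivin), a mitotic gene as well, fell with siBRAF, with an estimate of -2.38 (SE 0.28) and a limma adjusted p of 0.0373, being lower in both media. BIRC5 was the 1 call among 4 genes of that list, where 1.68% of all genes fell and 2.79% rose. BIRC2 was the 1 of 4 at least 2-fold higher without glutamine in siCont cells, against 5.76%, and 0 were lower, against 7.22%. The list's medians with siBRAF were 0.26 in normal and -0.58 in glutamine-free medium.

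In the death receptor pathway 9 genes entered. The TRAIL receptor TNFRSF10B (DR5) was higher without glutamine in siCont cells (1.53) and with siBRAF in normal medium (1.04). It was 1 of 9 in each, against 5.76% and 7.15% of all genes, and 0 were lower, against 7.22% and 7.6%. TNFRSF10A (DR4) was lower with siBRAF without glutamine (-1.45), where the adaptor TRADD was higher (1.25), and lower with vemurafenib (-2.15). With siBRAF without glutamine these were 1 of 9 lower and 1 of 9 higher, against 10.8% and 12.8% of all genes. With vemurafenib 1 of 9 was lower, against 1.92%, and 0 were higher, against 0.859%. The list's medians were 0.25, 0.15, -0.12 and -0.11 in those 4 comparisons. In the limma model 0 of 9 were called with siBRAF, where 2.79% of all genes rose and 1.68% fell.

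Of 15 transcription factors linked to these genes, 6 were at least 2-fold higher without glutamine in siCont cells and 0 lower, against 5.76% and 7.22% of all genes, with a median of 0.84, led by ATF3 (4.21), DDIT3 (3.75), JUN (3.64) and MYC (3.31). In siBRAF cells 0 were 2-fold apart, where 0.0457% of all genes were higher and 0.0761% lower. With siBRAF in normal medium 3 of 15 were higher, against 7.15% of all genes: the stress factors ATF3 (4.63) and JUN (3.65) and the melanocyte factor MITF (1.15). In the same comparison 2 of 15 were lower, against 7.6%: MYC (-1.52) and CEBPB (-1.23). Without glutamine 1 of 15 was higher with siBRAF, against 12.8% of all genes. It was FOXO4, at 26.1 against a siCont value of 11.4 that lies below the array median, so that its size depends on background. There 5 of 15 were lower, against 10.8%, led by MYC (-4.89), DDIT3 (-3.31), CEBPB (-2.80) and NFKB1 (-1.61). The medians were 0.40 and -0.22. Vemurafenib went with higher DDIT3 (1.75) and ATF3 (1.57) and with lower MYC (-3.14) and JUN (-1.08), with a median of 0.04. These were 2 of 15 higher and 2 of 15 lower, against 0.859% and 1.92% of all genes. With siATF4 in vemurafenib CEBPB (-1.31), ATF3 (-1.09) and ATF4 itself (-2.58) were lower, 3 of 15 against 0.729% of all genes. In normal medium only ATF4 (-1.76) was, 1 of 15 against 0.387%. ATF4 is the target of this siRNA, so its place in both counts was set by the knockdown. In normal medium no listed factor other than the target was 2-fold lower. Among the protein-level controllers of MCL1, BIM and BMF, 1 of 6 was higher with siBRAF in both media, against 7.15% and 12.8% of all genes. It was FBXW7 (1.52 and 1.14), which encodes a ubiquitin ligase subunit that marks MCL1. The other 5 were within 2-fold in all 7 comparisons, with list medians of 0.45 and 0.59 for siBRAF. 

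The genes whose pattern over the 8 arrays was most like that of the 3 most variable members were ranked by root mean square distance of log2 values centred within each set, over 4671 genes. For PMAIP1 they were the arginine transporter gene SLC7A1 (0.378), CCNA1 (0.421) and CDCP1 (0.457). SLC7A1 read 919, 2142, 200 and 194 on the siCont and siBRAF arrays in the order of normal and glutamine-free medium, 835 with siATF4, and 2228, 2661 and 1097 in DMSO, vemurafenib and vemurafenib with siATF4. For BCL2A1 they were CLDN1 (0.246), ETS1 (0.317) and ABL2 (0.330), all highest on the siCont array without glutamine among the 5 medium arrays. The BCL2A1 values below the array median, 4 of the 8, enter these distances, so over the DMSO and vemurafenib arrays they measure likeness to background. For BIK they were C1GALT1 (0.157), CCDC15 (0.164) and FBXO32 (0.166).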

How the data were processed

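The members and gene lists were chosen with earlier results of these data known. The authors deposited linear intensities per probe set. RMA, a method that summarizes probes across arrays, is named in the submitters' processing notes, and its version is not given in the sources used here. RMA subtracts background and evens the arrays' distributions, which compresses low levels. Of 54675 probe sets, 41091 carry 1 symbol, 1801 several and 62 are controls; symbols were updated through gene identifiers. Values were used as log2(intensity + 1), and a difference of 1 or more was counted. The number of arrays, 1 a condition, limits the precision.

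All 10 members were to be named, and from each list up to 4 genes a comparison with the largest 2-fold differences. The additive model used limma 3.58.1 in R 4.3.3 with an intensity trend and Benjamini-Hochberg adjustment over 13715 genes. It was tested on simulated data: median errors of the estimates were small, but the share of false calls exceeded the nominal one under both variance models tried, so its calls are less certain than their adjusted p. Alternatives changed the constant, filter, probe set, normalization, arrays in the fit and trend. Upstream windows were searched with Python 3.11.15.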

Additional observations from a re-analysis of the deposited data

Results flagged for a closer look

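BIK moved in opposite directions with glutamine withdrawal in the 2 knockdown backgrounds, at 1.36 in siCont cells and -0.70 in siBRAF cells, each at least 1.5-fold. BCL2A1 did so with siBRAF, at 0.83 in normal and -2.08 in glutamine-free medium. PMAIP1 did so with siATF4, at 0.71 in normal medium and -1.66 in vemurafenib. Each value is a difference of single arrays, and the difference between backgrounds was not tested in any of the 3. No group holds more than 1 array, so no array could be set against others of its group.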

How the results depend on the processing

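No paired analysis was possible because each condition has 1 array and the labels carry no replicate numbers. No array could be left out of the 4-array fit, which would have no residual. Among differences and estimates of single genes, 587 values under an alternative kept their side of the threshold, 8 passed it newly in the same direction, 3 lost it, and 2 passed it with the opposite sign, both of BCL2L11 without shared probe sets (-1.06 for glutamine withdrawal in siCont cells and 1.83 for siBRAF without glutamine). In all 12 values changed sign, 0 of them past the threshold in the main setting. With log2(intensity + 16), the members at least 2-fold lower with siATF4 in normal medium went from 1 to 0, all genes there from 113 to 56, and all genes apart in siBRAF cells without glutamine from 16 to 9. With a filter at the 75th percentile the same 3 counts were 0, 68 and 10, fewer genes being tested, and 2 members fell in the additive model, MCL1 and PMAIP1. With the mean of all probe sets, 1 member was lower with siBRAF in normal medium in place of 2 (MCL1 at -0.84), 71 genes were apart with siATF4 in normal medium, and 1 member fell in the model. Without shared probe sets only 7 members remain, PMAIP1 and BAX having none: 1 was lower without glutamine in siCont cells (BCL2L11), 1 higher and 1 lower with siBRAF in normal medium, 0 lower with siATF4 in vemurafenib, and in the model 0 rose among 126 genes called, against 612 in the main setting. The model called 320 genes without the intensity trend and 1083 under quantile normalization, with 2 members that rose and 1 that fell. With all 8 arrays it called 3283, with 2 that rose (BMF, BAX) and 2 that fell (MCL1, PMAIP1). The glutamine-free term called 0 genes in each of these fits. Among the members' 2-fold differences only that of BMF with siBRAF without glutamine moved by over 1.5 times, from 5.54-fold to 3.60-fold with log2(intensity + 16). Low signal limits BCL2A1, BCL2 and BMF, where background bears on the size of a fold.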
